A study of Mus musculus with 4 samples.

Results

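The nuclear genes for the 5 complexes of the mitochondrial respiratory chain were read in sorted mouse blood stem cells with and without Fam122a. A gene was taken as a member if GENCODE M21 (GRCm38) calls it protein-coding and its symbol starts with Nduf followed by a, b, c, s or v and a number, with Uqcr, with Cox4 to Cox8 or with Atp5, or is Sdha, Sdhb, Sdhc, Sdhd or Cyc1. The files held 85 such genes among 51912 Ensembl genes, of which 21870 are protein-coding. By name, 37 belong to complex I, 4 to complex II, 9 to complex III, 18 to complex IV and 17 to complex V. The names do not always follow the protein: the product of Ndufa4 is now placed in complex IV, Cox7a2l encodes a factor that joins complexes III and IV, and Atp5s is not a structural subunit of the synthase.

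The respiratory chain passes electrons from NADH (complex I) and succinate (complex II) through ubiquinone to complex III, cytochrome c and complex IV, which reduces oxygen. Complexes I, III and IV pump protons across the inner membrane, and complex V, the ATP synthase, uses the gradient to make ATP. Most subunits come from nuclear genes and a core set from mitochondrial DNA, and long-term stem cells are known for relying little on respiration while at rest.

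The series had 4 RNA sequencing libraries of long-term haematopoietic stem cells (LT-HSCs) from C57BL/6 mice aged 8 to 12 weeks, 2 from wild-type (WT) and 2 from Fam122a knockout (KO) animals. Each library was made from the sorted cells of 3 animals, combined before extraction. The gate took lineage-negative, Sca1+ and Kit+ cells lacking CD34 and Flk2. How Fam122a was removed, and in which cells, is not given in the sources used here. The study asked which genes depend on Fam122a, whose product is known to inhibit the phosphatase PP2A.

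WT replicate 2 stood apart, so the KO libraries were set against WT replicate 1 first and WT replicate 2 is shown separately. Levels are FPKM, that is, fragments per length of transcript and per depth of library. Fam122a was at 18.4 and 7.46 FPKM in WT replicates 1 and 2 and listed at 0 in both KO libraries. The share of all signal on coding genes was 81.9% for WT replicate 1 but 35.3% for WT replicate 2, and 90.9% and 90.1% for KO. The FPKM sums were themselves unequal: 1048395, 1289940, 831933 and 816028 in the order WT 1, WT 2, KO 1, KO 2. Markers of mature blood cells were abundant in WT replicate 1 and in KO: 8 neutrophil genes held 16.2%, 0.0261%, 8.79% and 7.79% of the sum in that order, with both KO libraries below WT replicate 1 for 8 of 8 genes. The 8 erythroid genes held 4.92%, 0.0142%, 7.18% and 9.74%, with both KO libraries above WT replicate 1 for 8 of 8. The 10 stem cell markers summed to 493, 404.5, 487 and 498 FPKM, with Procr and Ly6a listed at 0 in WT replicate 2. The part of these markers in the differences below was not tested, and fewer cells of a type cannot be told apart from less RNA per cell.

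In WT replicate 1 and both KO libraries the respiratory chain genes were abundant. The 85 members made up 2.1% of all FPKM in WT replicate 1 and 2.1% and 2.18% in KO, against 0.0788% in WT replicate 2. As a share of the protein-coding sum they held 2.56%, 2.31% and 2.42%, and 0.223% in WT replicate 2. The 3 members Cox8b, Cox8c and Ndufa4l2 were listed at 0 in all 4 libraries, and the other 82 were tested. Their median level was 199.9 FPKM in WT replicate 1, 163 and 177 FPKM in KO and 6.99 FPKM in WT replicate 2. Across these genes the log2 levels of the KO libraries correlated at 0.996, those of WT replicate 1 with KO at 0.977 and 0.976, and those of WT replicates 1 and 2 at 0.5. Genes share library, annotation and depth, so these coefficients describe the libraries.

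**Figure D1:**
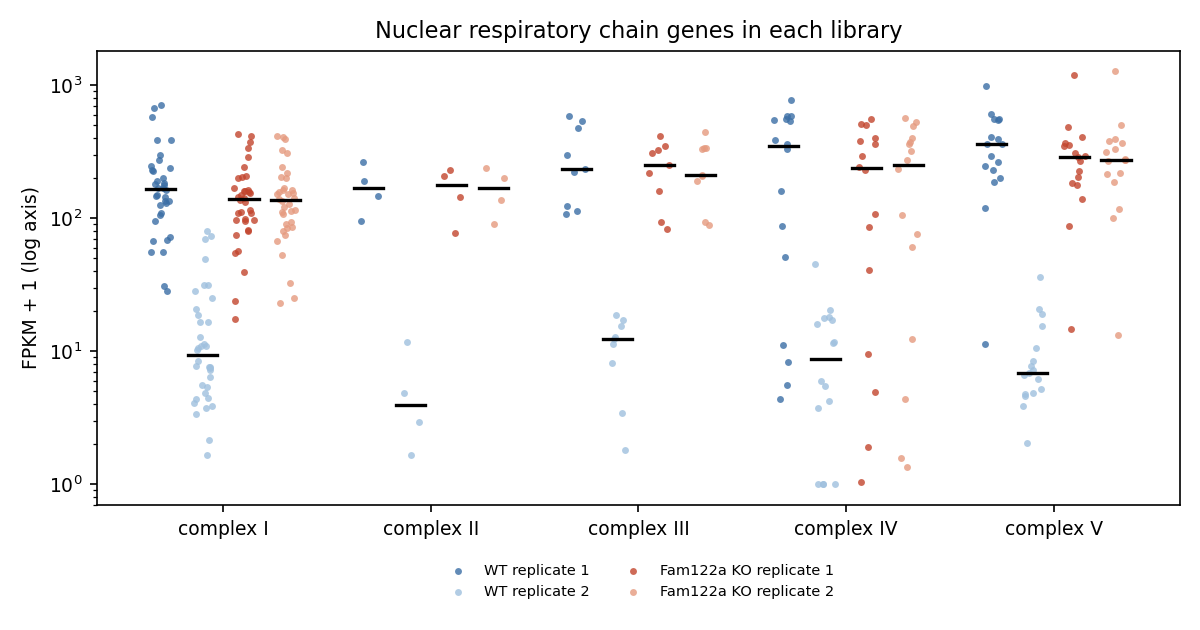
Level of each tested respiratory chain gene (FPKM + 1, log axis) in the 4 libraries, grouped by complex, with 1 point per gene and a bar at the median. Medians of WT replicate 1 and both KO libraries lie between 136 and 358 FPKM in every complex, and those of WT replicate 2 between 2.92 and 11.4 FPKM.

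The level differed between complexes. Complexes IV and V had the highest medians in WT replicate 1, at 345 and 358 FPKM, followed by complex III at 232 FPKM and by complexes II and I at 167 and 165 FPKM. The same complexes had medians of 236 and 252 (IV), 287 and 274 (V), 249 and 210.2 (III), 175 and 168 (II) and 139 and 136 FPKM (I) in KO replicates 1 and 2. The ranges overlapped: complex I ran from 27.2 to 705 FPKM in WT replicate 1 and complex V from 10.3 to 978 FPKM.

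Against WT replicate 1, most members were lower in both KO libraries, by a small amount, and none passed the test. The log2 difference, KO mean minus WT replicate 1 on the log2(FPKM + 1) scale, was below 0 for 68 of 82 members (all genes 50.1%) and above 0 for 14 (all genes 49.9%). Its median was -0.34, against 0.00 over all 15867 genes tested. Both KO libraries lay below WT replicate 1 for 65 members (79.3%, against 43.0% of all genes) and above it for 12 (14.6%, against 42.5%). With limma and Benjamini-Hochberg adjustment over all genes, 0 members were called, where 0.454% of all genes were called higher and 9.37% lower. Without adjustment, 26 members were lower and 2 higher at p under 0.05, beside 20.2% and 13.2% of all genes. The smallest adjusted p of a member in limma was 0.0688, for Ndufb3. This fit estimates the spread from the KO pair alone and assumes that the single WT library varies as they do.

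Scaling the libraries to equal totals moved the members to the middle of the scale. The median of all genes then became 0.31 and that of the members 0.00, so the members lay below the median gene under both scales. Of the 82 members, 42 were above 0 (all genes 63.9%) and 40 below (all genes 36.1%). Both KO libraries lay above WT replicate 1 for 36 members (43.9%, against 56.8% of all genes) and below it for 31 (37.8%, against 30.7%). No member was called by limma here either, beside 1.11% of all genes higher and 8.46% lower. Unadjusted, 8 members were higher and 6 lower, beside 23.5% and 16.5%, and the smallest adjusted p was 0.059, for Sdha. Members above 0 thus rose from 14 as deposited to 42, and 40 remained below. The sign therefore depends on the scaling for part of the members.

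**Figure D2:**
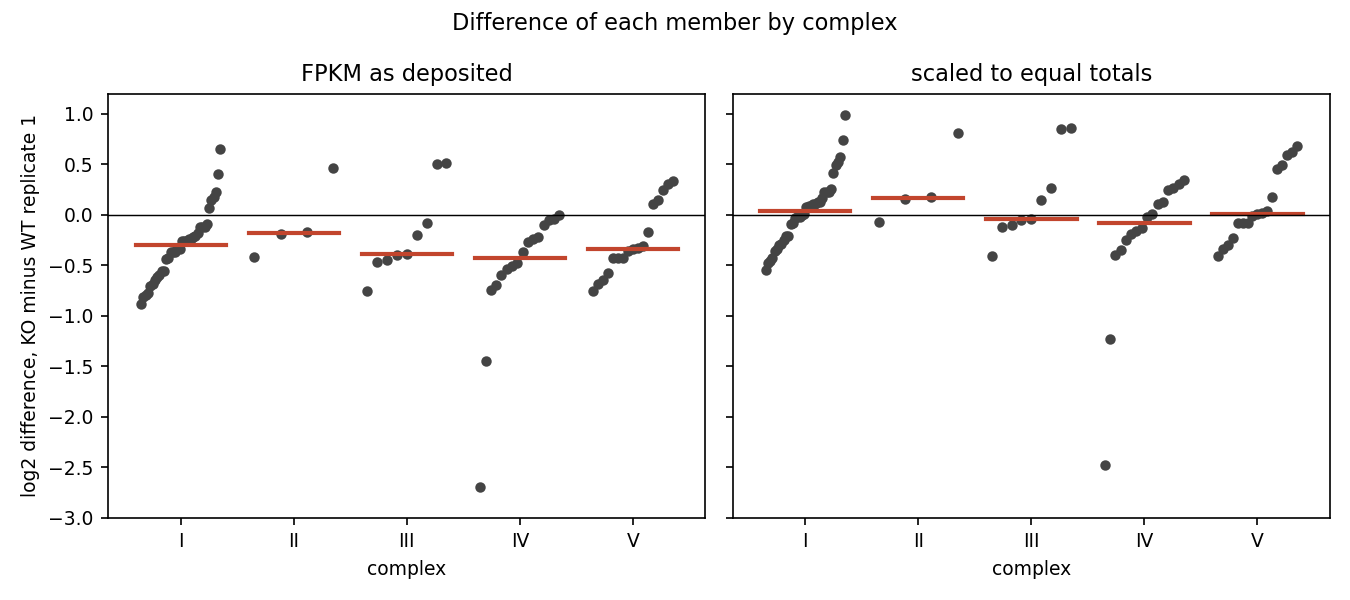
Log2 difference between the KO mean and WT replicate 1 for each tested member, by complex, as deposited and after scaling to equal totals, with a bar at the median. Complex medians lie between -0.43 and -0.18 as deposited and between -0.08 and 0.17 after scaling.

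Within complex I the catalytic core and the accessory subunits had different medians and overlapping ranges. The core is the set of conserved nuclear subunits that carry the flavin and iron-sulfur clusters. Its 7 genes had a median difference of 0.15, and both KO libraries were above WT replicate 1 for 4 and below it for 3. The 29 other tested genes had a median of -0.37, with 1 above and 27 below. The core ran from -0.37 to 0.65 and the others from -0.89 to 0.23. After scaling to equal totals the medians were 0.49 and -0.02. The difference between these classes was not tested. The core genes are also longer, with a median of 789 coding bases against 393.

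Ndufv1, the subunit that binds NADH and the flavin (ENSMUSG00000037916, chr19:4007384-4012806, minus strand), was at 70.8 FPKM in WT replicate 1, 97.7 and 127 in KO and 3.82 in WT replicate 2. Ndufa10, an accessory subunit, was at 94.0, then 115 and 106, and 78.5 FPKM in WT replicate 2, the highest value of any member there. For these genes both KO libraries were above WT replicate 1, with log2 differences of 0.65 and 0.23. Neither passed, and the limma adjusted p of Ndufv1 was 0.228 (SE 0.24).

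The 3 genes of complex I with the largest differences below 0 encode accessory subunits. Ndufb5, in the membrane arm, was at 142 FPKM in WT replicate 1, 78.8 and 74.4 in KO and 6.6 in WT replicate 2. Ndufb3, also in the membrane arm (chr1:58586384-58595964, plus strand), was at 147, then 81.1 and 84.4, and 4.35 FPKM. Ndufa5, in the matrix arm, was at 162, then 95.6 and 89.5, and 9.98 FPKM. Their KO values were close to each other and below WT replicate 1, with log2 differences of -0.89 (SE 0.09), -0.82 (SE 0.08) and -0.80. The limma adjusted p was 0.0701 for Ndufb5 and 0.0688 for Ndufb3, and after scaling the differences were -0.54 and -0.47. Ndufb5 shares exonic sequence with Mrpl47, and the library kit does not mark strand, so their reads may not be told apart.

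Ndufa3 had the highest mean level by name in complex I, at 705 FPKM in WT replicate 1, 432 and 395 in KO and 2.77 in WT replicate 2. Ndufb4 had the lowest, at 29.9, then 16.5 and 22.03, and 7.44 FPKM. Ndufb4 has a near copy, the processed pseudogene Ndufb4c, at 35.3 FPKM in WT replicate 1 and 41.4 and 39.5 in KO. Its level is therefore uncertain, as reads may be split between the copies.

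Complex II, which oxidises succinate, has 4 nuclear subunits and no mitochondrial one, and its catalytic subunit lay on the other side from the rest. Sdha, the flavoprotein (ENSMUSG00000021577, chr13:74322254-74350280, minus strand), was at 146 FPKM in WT replicate 1, 206 and 198 in KO and 10.8 in WT replicate 2. Both KO libraries were above WT replicate 1 (log2 difference 0.47, SE 0.08, limma adjusted p = 0.114), and after scaling the difference was 0.81 (SE 0.07, limma adjusted p = 0.059). Sdhb, the iron-sulfur subunit, was at 262 FPKM, then 228 and 238 in KO, and 3.87 in WT replicate 2. Of the membrane anchors, Sdhc was at 93.8, then 76.2 and 88.8, and 0.66 FPKM, and Sdhd at 188, then 144 and 137, and 1.96 FPKM. The KO values of these 3 were below WT replicate 1 (-0.17, -0.19 and -0.42). After scaling Sdhb and Sdhc were above it (0.18 and 0.16).

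In complex III, a core protein and cytochrome c1 were higher in both KO libraries and the other 7 genes lower. Uqcrc1, a core protein (chr9:108936633-108949623, plus strand), was at 232 FPKM in WT replicate 1, 326 and 337 in KO and 10.3 in WT replicate 2. Cyc1, the haem protein that hands electrons to cytochrome c (chr15:76343523-76346260, plus strand), was at 122, then 159 and 189, and 0.81 FPKM. Neither passed: the log2 differences were 0.51 (SE 0.08, limma adjusted p = 0.109) and 0.50 (SE 0.17, limma adjusted p = 0.204). After scaling they were 0.86 (limma adjusted p = 0.0656) and 0.85. Uqcrc2, the partner core protein and the lowest of the complex by mean level, was at 112, then 82.0 and 88.6, and 2.41 FPKM (-0.40).

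Small subunits were among the 7 genes of complex III with both KO libraries below WT replicate 1. Uqcrb was at 540.0 FPKM in WT replicate 1, 306 and 332 in KO and 17.6 in WT replicate 2. Uqcr10 was at 473, then 348 and 336, and 7.19 FPKM, and Uqcr11, the highest of the complex, at 587, then 414 and 444, and 14.5 FPKM. Both KO libraries were below WT replicate 1 for each (-0.76, -0.46 and -0.45).

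Complex IV had no member above 0 as deposited: 13 of 16 tested genes had both KO libraries below WT replicate 1 and 3 had one on each side. Cox8a, the highest of the complex, was at 775 FPKM in WT replicate 1, 556 and 531 in KO and 16.8 in WT replicate 2 (-0.51). Cox7c was at 387, then 229 and 232, and 16.3 FPKM (-0.74, limma adjusted p = 0.0737). Ndufa4, counted by name in complex I, was at 675, then 414 and 414, and 6.61 FPKM (-0.70). Cox7a2l differed less, at 86.1, then 84.9 and 75.6, and 3.23 FPKM (-0.10). After scaling to equal totals the median of the complex was -0.08, with 5 genes above and 8 below in both KO libraries.

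In complex V the catalytic subunit was the most abundant member of all. Atp5b, the beta subunit of the F1 head (ENSMUSG00000025393, chr10:128083273-128090391, plus strand), was at 978 FPKM in WT replicate 1, 1199 and 1267 in KO and 17.9 in WT replicate 2 (0.33, SE 0.14, limma adjusted p = 0.250). Atp5a1, the alpha subunit and chosen after its values were seen, was at 363, then 409 and 394, and 6.21 FPKM (0.15). Both KO libraries lay above WT replicate 1 for these head subunits. Atp5e, the small epsilon subunit, was at 185 FPKM, then 176 and 274, so that the KO libraries fell on either side. Atp5s, the lowest, was at 10.3, then 13.7 and 12.2, and 1.03 FPKM.

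The 3 members of complex V with the largest differences below 0 encode small subunits of the stalk and the membrane part. Atp5l, subunit g, was at 608 FPKM in WT replicate 1, 355 and 365 in KO and 35.1 in WT replicate 2. Atp5j, coupling factor F6, was at 549, then 350.4 and 331, and 3.82 FPKM, and Atp5k, subunit e, at 199.6, then 139 and 117, and 7.49 FPKM. The log2 differences were -0.75 (limma adjusted p = 0.0833), -0.69 and -0.64, and none passed. Atp5d, the small delta subunit of the central stalk and chosen after its values were seen, lay the other way, at 247, then 267 and 266, and 2.87 FPKM (0.11). Atp5j shares exonic sequence with Gabpa, and Atp5l with a predicted gene. In all, 29 of the 85 members overlap exons of another gene.

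The members' differences followed the length of their coding sequence, a property that the choice of genes did not use. The 23 members with under 300 coding bases had a median difference of -0.46, the 37 with 300 to under 600 bases -0.34, the 13 with 600 to under 1200 bases -0.18 and the 9 with 1200 or more 0.33. Counting those above 0 gave 1 of 23, 2 of 37, 4 of 13 and 7 of 9. After scaling the medians were -0.12, 0.00, 0.17 and 0.68. Across the 82 members the Spearman coefficient between difference and coding length was 0.51, and it was 0.55 and 0.49 for KO replicates 1 and 2 taken alone. Between the KO libraries it was -0.09.

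Coding genes outside the respiratory chain had a like order by length. Those with a mean of at least 20 FPKM had medians of -0.38 (167 genes), -0.17 (849), 0.14 (1749) and 0.42 (2719) in the same classes. The members' median was the lower in each class. The coefficient over these 5484 genes was 0.35, and 0.10 over all 13062 other coding genes. Genes are not independent replicates and share libraries, so these are descriptions. Ndufv1, Sdha, Uqcrc1, Cyc1 and Atp5b, which had both KO libraries above WT replicate 1, are catalytic or core subunits and also, with 975 to 1992 coding bases, among the longer members. Role and length cannot be told apart among them. Atp5d and Atp5s, with 504 and 600 coding bases, also had both KO libraries above. So did Ndufa10, an accessory subunit with 1065 coding bases. The core protein Uqcrc2, with 1359 coding bases, had both below. So did the iron-sulfur subunit Sdhb, with 846 coding bases. Of the 7 core genes of complex I, 4 had both above and 3 both below.

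**Figure D3:**
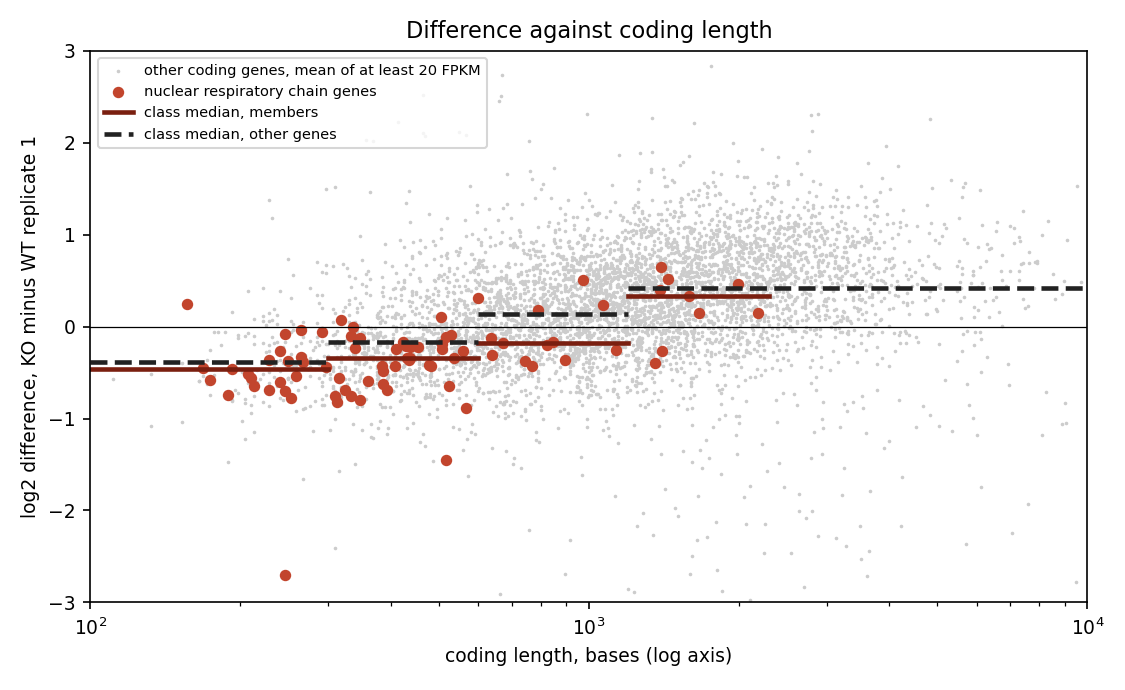
Log2 difference between the KO mean and WT replicate 1 against coding length (bases, log axis) for the 82 tested members, over 5484 other coding genes with a mean of at least 20 FPKM; 148 of the latter lie outside the axes, and bars mark the class medians of members (solid) and other genes (dashed). Member medians go from -0.46 under 300 bases to 0.33 at 1200 or more.

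Tissue isoforms of complexes IV and V were compared by level. In WT replicate 1 and KO the muscle, lung and testis forms of complex IV subunits were far below their ubiquitous partners, and Cox6b2 held the largest share of its pair. Cox4i1, the ubiquitous form of subunit 4, was at 584 FPKM in WT replicate 1, 498 and 488 in KO and 10.5 in WT replicate 2. Its lung form Cox4i2 was at 3.39, then 0.92 and 0.35, and listed at 0 in WT replicate 2. It held 0.578% of the pair in WT replicate 1 and 0.184% and 0.0717% in KO (log2 difference -1.45, limma adjusted p = 0.141).

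Of the muscle forms, Cox6a2 measured 10.2 FPKM in WT replicate 1, then 8.48 and 11.3 in KO, beside 539, 513 and 566.5 FPKM of Cox6a1. Cox7a1 was at 4.57, then 3.9 and 3.35, beside 332, 242 and 272 FPKM of Cox7a2. Both muscle forms were listed at 0 in WT replicate 2, and their shares of the pair were between 1.22% and 1.95% in the other 3 libraries. Cox6b2, the testis form, reached 50.2 FPKM in WT replicate 1 and 39.5 and 60.2 in KO, or 8.36%, 9.41% and 13.9% of its pair, beside 550, 380.5 and 374 FPKM of Cox6b1. The KO libraries lay on either side of WT replicate 1 for Cox6a1, Cox6a2 and Cox6b2, and Cox6b2 was listed at 0 in WT replicate 2.

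Cox7b2, another testis form, had the largest difference of any member. Its level was 44.4 FPKM in WT replicate 2, against 7.34 in WT replicate 1 and 0.05 and 0.57 in KO, beside 19.6, 160, 107 and 104 FPKM of Cox7b. The log2 difference from WT replicate 1 was -2.70 (SE 0.36, limma adjusted p = 0.0936), and it did not pass. The gene has 542 exonic bases in a span of 105382 (chr5:71442824-71548205, minus strand), a ratio of 194 and the highest of the tested members. Ndufs4, a complex I subunit with the next highest ratio (37.1) and chosen after its values were seen, had levels of 55.1 (WT 1), 73.0 (WT 2), 38.5 (KO 1) and 31.7 FPKM (KO 2). These were the 2 members whose WT replicate 2 level exceeded that of WT replicate 1.

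The c-ring of complex V is made from the products of 3 genes with the same mature protein. Atp5g3 measured 552 FPKM in WT replicate 1, then 482 and 497 in KO, Atp5g1 at 395, then 309 and 279, and Atp5g2 at 118, then 86.9 and 98.7. Atp5g3 held 51.8% of the family in WT replicate 1 and 54.9% and 56.8% in KO, and Atp5g1 37.1%, 35.2% and 31.9%. In WT replicate 2 they were at 19.9, 3.76 and 3.61 FPKM. The order Atp5g3, Atp5g1, Atp5g2 was thus the same in every library. Reads of such near copies may be split between them.

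**Figure D4:**
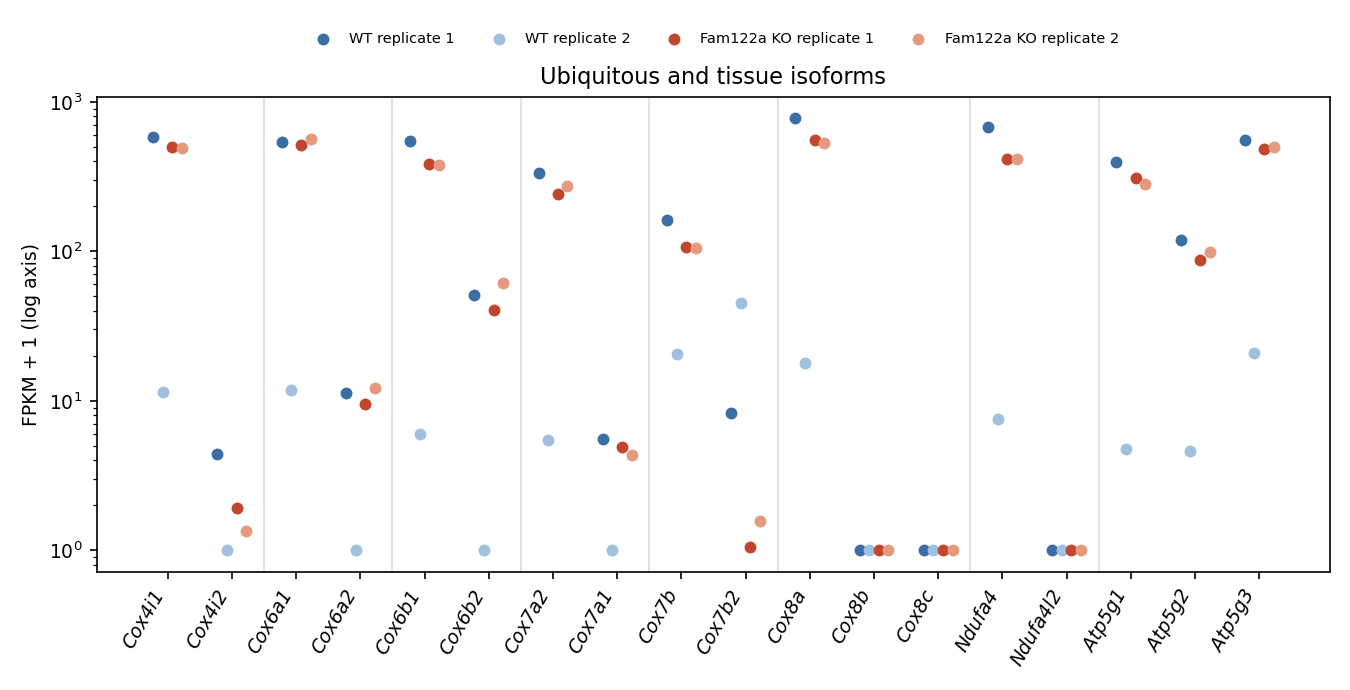
Level (FPKM + 1, log axis) of ubiquitous and tissue isoforms in the 4 libraries, with grey lines between families. Cox8b, Cox8c and Ndufa4l2 sit at 0 FPKM in all 4, and Cox7b2 has its highest level, 44.4 FPKM, in WT replicate 2.

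The forms of subunit 8 differ most plainly, and their promoters are printed for that contrast. Cox8a, the ubiquitous form, was among the highest members, and Cox8b, the heart and skeletal muscle form, was listed at 0 in all 4 libraries. The 250 bases before each start site are given from RefSeq (GRCm38.p6), for Cox8a chr19:7217617-7217866 and for Cox8b chr7:140900447-140900696, both on the minus strand and read in the direction of the gene, with each CG pair in capitals.
Cox8a: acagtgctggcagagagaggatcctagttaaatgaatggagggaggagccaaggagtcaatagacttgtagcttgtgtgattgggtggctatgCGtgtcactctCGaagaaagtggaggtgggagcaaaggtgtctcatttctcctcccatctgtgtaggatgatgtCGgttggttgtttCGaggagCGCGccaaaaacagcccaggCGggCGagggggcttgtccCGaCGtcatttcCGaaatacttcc
Cox8b: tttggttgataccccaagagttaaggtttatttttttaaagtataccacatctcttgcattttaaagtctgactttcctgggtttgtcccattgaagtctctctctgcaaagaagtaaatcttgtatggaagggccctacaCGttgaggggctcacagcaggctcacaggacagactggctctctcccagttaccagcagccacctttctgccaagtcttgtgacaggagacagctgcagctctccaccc
The Cox8a window held 11 CG pairs and 52.8% G and C, and the Cox8b window 1 pair and 47.2%. RefSeq promoters were found for 68 of 85 members, with a median of 14 CG pairs, against 10 over 16698 coding genes.

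Short motifs of known regulators of respiratory genes were counted in the 300 bases from 250 before to 50 after the start, on both strands. GCATGCG, the core of the NRF1 site, was in 11 of 68 members (16.2%, against 4.66% of coding genes). CCGGAAG, the ETS core that GABP also binds, was in 16 (23.5%, against 12.1%), and ATGGCGG, the YY1 core, in 10 (14.7%, against 5.5%). None of these motifs contains another, and partial overlaps were not removed. Members with and without them had like median differences between KO and WT replicate 1, at -0.34 and -0.35, -0.42 and -0.33, and -0.41 and -0.34. A match describes letters in this window and is not evidence of binding.

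WT replicate 2 held little respiratory chain RNA. Coding genes in general were low there, with 35.3% of the sum against 81.9% in WT replicate 1. Of 82 tested members, 66 were at under 10% of their WT replicate 1 level, and 4 (Cox4i2, Cox6a2, Cox6b2 and Cox7a1) were listed at 0. The share of all genes at under 10% was not counted, so whether the count is particular to the members was not tested. Members held 2.56% of the coding sum in WT replicate 1 and 0.223% in WT replicate 2. The complex medians there were 8.36 (I), 2.92 (II), 11.4 (III), 7.76 (IV) and 5.85 FPKM (V). The highest members were Ndufa10 and Ndufs4, at 78.5 and 73.0 FPKM, followed by Ndufb9, Ndufv2 and Cox7b2 at 68.3, 48.0 and 44.4 FPKM. Over the 82 members, the ratio of genomic span to exonic length had a Spearman coefficient of 0.00 with the level in WT replicate 2, against -0.28 in WT replicate 1 and -0.30 and -0.31 in KO.

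**Figure D5:**
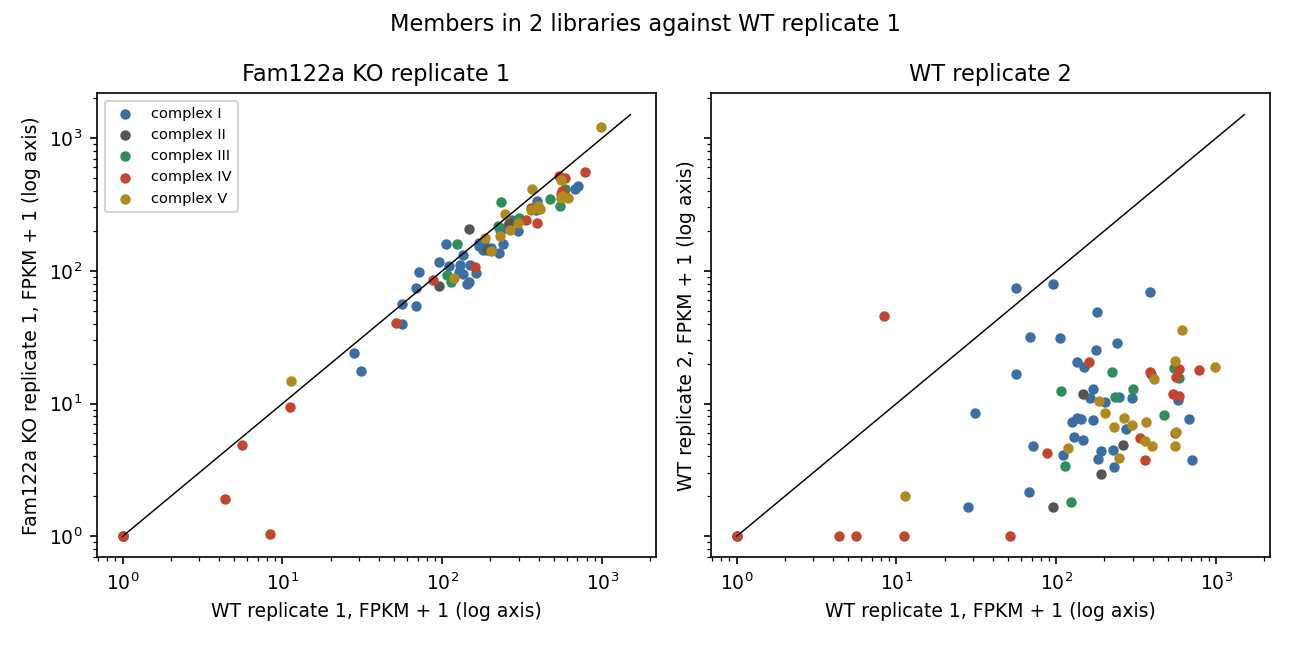
Level of each member in KO replicate 1 and in WT replicate 2 against its level in WT replicate 1 (FPKM + 1, log axes). Points of KO replicate 1 lie along the line of equal values. In WT replicate 2, 66 of the 82 tested members are at under 10% of their WT replicate 1 level. The share of all genes at under 10% was not counted.

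With both WT libraries in the fit, the direction of nearly all members turned. The log2 difference was above 0 for 79 of 82 members (all genes 46.7%) and below 0 for 3 (all genes 53.3%). Its median was 2.08, against -0.28 over 20434 genes. Over all 14821 coding genes tested the median was 0.55. Over the 5563 coding genes with a mean of at least 20 FPKM in WT replicate 1 and KO it was 1.88. That filter leaves out WT replicate 2, so a difference above 0 is partly built into this set, which also holds members. This fit shares its KO libraries and WT replicate 1 with the one above. No member passed, beside 0.00% of all genes in either direction. Unadjusted, 1 member had p under 0.05, Cox7b2 (-3.92, SE 1.18, limma adjusted p = 0.323), beside 0.577% of all genes higher and 11.6% lower. Both KO libraries were above both WT libraries for 12 members, beside 27.1% of all genes, and below both for 2, Cox7b2 and Ndufs4, beside 37.6%. The turn follows from WT replicate 2, without which the median was -0.34.

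Among other genes of the pathway, mitochondrially encoded subunits were also lower in KO than in WT replicate 1. Of 13, 12 were tested, 12 were below 0 and 0 were called, with a median difference of -0.79 and of -0.44 after scaling. Both KO libraries were below WT replicate 1 for 11 of the 12 tested (all genes 43.0%), and for mt-Nd3 they lay on either side. Together the 13 genes summed to 20660 FPKM in WT replicate 1, 10510 and 10580 in KO and 1718 in WT replicate 2. The nuclear members summed to 21970, 17500, 17790 and 1017 FPKM in the same order. mt-Co3, a catalytic complex IV subunit, was at 829 FPKM in WT replicate 1, 362 and 386 in KO and 223 in WT replicate 2 (-1.14, limma adjusted p = 0.0654).

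Assembly factors and regulators are read against the same shares of all genes: 0.454% called higher, 9.37% called lower and 49.9% above 0, or 63.9% above 0 after scaling. The 14 factors for complex I had a median of -0.32 (0 called, 5 above 0 and 9 below), and the 32 for complexes II to V -0.14 (0 called higher, 1 lower, 14 above 0 and 18 below). After scaling these medians were -0.04 and 0.20, with 7 of 14 and 21 of 32 above 0. The called gene was Sdhaf3, a complex II assembly factor, which fell from 33.9 FPKM in WT replicate 1 to 1.26 and 0.74 in KO (-4.14, SE 0.29, limma adjusted p = 0.0478). It was at 45.0 FPKM in WT replicate 2, its span is 17.1 times its exonic length, and the call ended after scaling to equal totals (limma adjusted p = 0.0518), with a pseudocount of 0.1 (0.106) and without a filter (0.191).

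Of 14 biogenesis regulators, 1 rose, 1 fell and 11 were above 0 (median 0.25, or 0.57 with 12 above 0 after scaling). Polrmt, the mitochondrial RNA polymerase, rose from 9.9 FPKM in WT replicate 1 to 35.9 and 37.2 in KO (1.78, SE 0.11, limma adjusted p = 0.0421) and was at 1.06 in WT replicate 2. Ppargc1a, a coactivator of respiratory genes, fell from 80.0 FPKM to 1.27 and 1.03 (-5.24, SE 0.21, limma adjusted p = 0.0265) and was at 56.4 in WT replicate 2. Its span is 17.2 times its exonic length, against 2.23 for Polrmt. Both calls held after scaling to equal totals (limma adjusted p = 0.0312 and 0.0399). They ended with a pseudocount of 0.1 (0.0652 and 0.0643) and without a filter (0.0723 and 0.0634), and that of Polrmt also with the filter of 1 FPKM in 2 libraries (0.0516).

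The 13 citrate cycle genes had a median of -0.06 (0 called, 6 above 0 and 7 below), and the 13 carriers and exchangers 0.22 (0 called, 9 above 0 and 4 below). After scaling the medians were 0.28 and 0.56, with 10 and 9 above 0. Ucp2, an inner-membrane carrier, had 720.5 FPKM in WT replicate 1, 1501 and 1796 in KO and 4.16 in WT replicate 2 (1.19). Cycs, cytochrome c, was at 50.8, then 34.6 and 35.8, and 5.12 FPKM (-0.52). Neither passed.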

How the data were processed

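Each of the 4 files holds 1 value per feature without a header; the deposited values behave as FPKM, a unit inferred here and not named per the labels. STAR 2.7.1a, HISAT2 2.1.0, bcl2fastq, mm10 and GRCm38.p5 appear in the submitters' processing notes with no role; which tool quantified, and on which annotation, is not given in the sources used here. Per the labels' protocols, the SMART-Seq v4 kit was used for 2 biological replicates. The depth is unknown, so no counting interval is given. Of 87703 features, 35791 MSTRG loci, which name no gene and held 9.14%, 53.9%, 1.74% and 1.81% of the sum in WT replicates 1 and 2 and KO replicates 1 and 2, stayed out of the tests.

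On log2(FPKM + 1), limma 3.58.1 in R 4.3.3, with its trend option, compared the groups over genes with a mean of at least 1 FPKM, with Benjamini-Hochberg adjustment over all tested genes and a threshold of 0.05. The pseudocount understates changes of low genes. P-values set each difference against the spread between libraries. For KO against WT replicate 1 that spread comes from the KO pair alone and holds no spread between WT libraries. On simulated data for KO against WT replicate 1 (13515 genes), the test found 44%, 100%, 100% and 98% of genes set to differ by 1, 2, 3 and 4 in log2, with 12 false calls. How often real differences of these sizes are found between these libraries was not tested. Cox7b2, at -2.70 in log2, did not pass, and Polrmt, at 1.78, did. Alternatives covered scaling to equal totals, to equal coding totals, by median ratios and by quantiles. They also covered the pseudocount, the filter, the replicate block and each library left out. Leaving out a KO library together with equal totals was added after seeing the data.

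The members and lists were chosen with earlier results of these data known. Values in every library are given for the highest and lowest member of each complex, for up to 3 members per direction with the largest difference (2 in complex III, all of complex II), for all tissue isoforms, and for up to 3 members of each other list by smallest p, of which some are named. Ndufs4, Ndufb9, Ndufv2, Atp5a1, Ucp2 and Cycs were named after their values were seen where they fall outside this rule. One gene that the rule took is counted but its values are not reported here. Promoters came from RefSeq (GRCm38.p6) and coordinates from GENCODE M21.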

Additional observations from a re-analysis of the deposited data

Results flagged for a closer look

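Signal appeared at a gene copy that the comparisons do not use. Ndufb4c, a processed pseudogene of the complex I subunit gene Ndufb4 (GRCm38 chr15:73809507-73809896, minus strand), was at 35.3 and 18.4 FPKM in WT replicates 1 and 2 and at 41.4 and 39.5 FPKM in KO. Both KO libraries were above both WT libraries, and in all 4 libraries the copy was listed above Ndufb4 itself. The difference was not tested for the copy on its own, and whether its reads come from Ndufb4 was not tested.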

How the results depend on the processing

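For KO against WT replicate 1, the members' median of -0.34 became 0.00 with equal totals, -0.14 with equal coding totals, -0.25 with quantiles and -0.42 with median ratios. Leaving out a KO library gave -0.30 to -0.33, and with equal totals 0.00 to 0.06. All genes called higher and lower numbered 72 and 1487. Higher calls became 176 with equal totals, and 865 beside 1716 lower with quantiles. The pseudocount of 0.1 gave 29 higher and 672 lower, no filter 262 and 7628, and 1 FPKM in 2 libraries 25 and 196. Members called were 0, but 2 with quantiles (Ndufb3 and Ndufb5) and 3 without a filter (Ndufa4, Cox5b and Ndufb6). Members above 0 numbered 14 of 82, but 42 with equal totals, 28 with equal coding totals and 18 with quantiles. Among the genes that the naming rule took, differences that turned to 0.01 or more with equal totals were 0.18 for Sdhb, 0.16 for Sdhc, 0.10 for Cox4i1, 0.35 for Cox6a1, 0.26 for Cox6a2, 0.30 for Cox6b2, 0.01 for Cox7a1, 0.24 for Cox7a2l and 0.18 for Atp5g3. With coding totals they were 0.04 for Sdhb, 0.01 for Sdhc, 0.20 for Cox6a1, 0.13 for Cox6a2, 0.16 for Cox6b2, 0.10 for Cox7a2l and 0.03 for Atp5g3, and with quantiles 0.23 for Cox6a1, 0.15 for Cox6a2, 0.43 for Cox7a1 and 0.04 for Atp5g3. The cause was not tested.

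With all 4 libraries, leaving out one gave 0 to 7103 genes higher, 0 to 8850 lower, 0 to 78 members called and medians from -0.34 to 4.34. The highest counts came without WT replicate 1, and -0.34 (72 higher, 1487 lower) without WT replicate 2. The replicate block gave 0 calls and a median of 2.08. The labels do not say that numbers pair the samples, and same-numbered libraries deviated together at r = 0.039. No block could be fitted with 1 WT library.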

Other observations

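Ndufb1-ps, a locus that GENCODE M21 lists as a long non-coding RNA and that the symbol rule therefore left out, had levels of 171 and 4.43 FPKM in WT and of 89.7 and 80.4 FPKM in KO. Uqcrh-ps1, a processed pseudogene, was at 4.66 and 6.04 FPKM in WT and listed at 0 in both KO libraries. Neither was tested.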
